A study of Mus musculus with 24 samples.

Results

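Solute carriers are the membrane proteins that move ions, nutrients, metals and metabolites into and out of cells and organelles. They were described here across the distal colon of mice with T cell transfer colitis, with and without treatment. A gene was taken as a member when its symbol followed the Slc family pattern and its mean level over all 24 libraries was 5 CPM or more, where CPM is the read count per 1000000 reads of the library's total. This rule kept 181 of the 348 symbols with that pattern, out of 43280 symbols in the files. Of the 181, 5 carry the pattern without being carriers (Slc9a3r1, Slc9a3r2, Slc4a1ap, Slc7a6os and Slc2a4rg-ps), which left 176 carriers in 11 substrate classes. The members were chosen by their mean level over the 24 libraries, so levels are given as description. Just inside the limit lay Slc41a3 at 5.49 CPM, Slc36a4 at 5.45 CPM and Slc9a9 at 5.28 CPM. Just outside it lay Slc25a14 at 4.97 CPM, Slc10a2 at 4.92 CPM and Slc26a6 at 4.91 CPM. Of the 167 symbols left out, 147 had at least 1 read and 20 had none. Of the members, 166 averaged 5 CPM or more in all 6 groups, 6 were under 5 CPM in Vehicle colon and 7 were under it in Normal colon.

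The mice were female SCID animals of the C.B-17/Icr-scid/scid strain, which lack their own mature B and T cells, bought at 7 weeks of age. Colitis was set off with 200000 activated CD4+ T cells from BALB/c mice. Each of the 6 groups had 4 libraries, made from RNA of the distal colon, for the colitis groups on day 28. The Vehicle group had colitis and received 0.5% methylcellulose. The MEKi 0.3 and MEKi 1 groups had colitis and received an inhibitor of the kinase MEK, known here by its code name compound 33, in enteric microparticles at 0.3 or 1 mg/kg by mouth once a day on days 17 to 27. The anti-TNF and Isotype groups had colitis and received an antibody against TNFa or an isotype antibody, at 0.1 mg per mouse every 4 days from day 17. The Normal group is of the same strain and labelled as having no treatment. No group received microparticles without the inhibitor. The labels do not say that the 4 libraries of a group came from 4 separate mice, so the p-values measure the spread between these libraries, which may be technical.

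In the colon, surface cells of the lining take up sodium, chloride, short-chain fatty acids and water. The apical exchangers of the Slc26 and Slc9 families do much of this work, while basolateral carriers bring in bicarbonate and chloride. Carriers used by immune cells, though not only by them, include lysosomal peptide carriers, a lactate exporter and amino acid carriers that serve growth.

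Library totals ran from 3052940 to 10587555 reads. A table of all samples was also deposited, and in it 16 of 24 columns carried the name of another sample than the file with identical values. Groups were taken from each sample's own file. The 7 T cell genes looked at summed to 434 to 709 reads in Vehicle libraries and 22 to 57 reads in Normal libraries when taken that way. Under the table's names the Vehicle libraries held 43 to 514 reads of them and the Normal libraries 22 to 508. For 2 Isotype and 2 anti-TNF libraries the naming cannot be decided from the counts. Transcripts of pancreas acinar cells were high in 2 libraries, at 5124 CPM in Vehicle replicate 4 and 3579 CPM in Isotype replicate 1. In bulk tissue, fewer cells of a type and less RNA per cell cannot be told apart.

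The comparison of Vehicle with Normal colon asked how carriers stood in colitis. In Vehicle colon 29 members rose and 67 fell. The chloride, sulphate, phosphate, peptide and iron carriers Slc26a3, Slc26a2, Slc20a1, Slc15a1 and Slc40a1 were among those that fell, and the lysosomal peptide, cystine and lactate carriers Slc15a3, Slc7a11 and Slc16a3 among those that rose. Calls rest on edgeR's quasi-likelihood test over all 14773 genes tested, with Benjamini-Hochberg adjusted p under 0.05. The 96 called members make 53% of the 181, against 46.4% of all genes tested and 48.7% of the tested genes with a mean of 5 CPM or more. By direction, 37% of members fell, against 23.3% of all genes tested, and 16% rose, against 23.1%. The median log2 fold change of the members was -0.24, that of all genes tested 0.00. The 176 carriers together held 10982 ± 407 CPM in Vehicle colon and 17833 ± 707 CPM in Normal colon (SD, n = 4 each). Without its 4 libraries in turn, either group gave 88 to 93 called members.

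**Figure D1:**
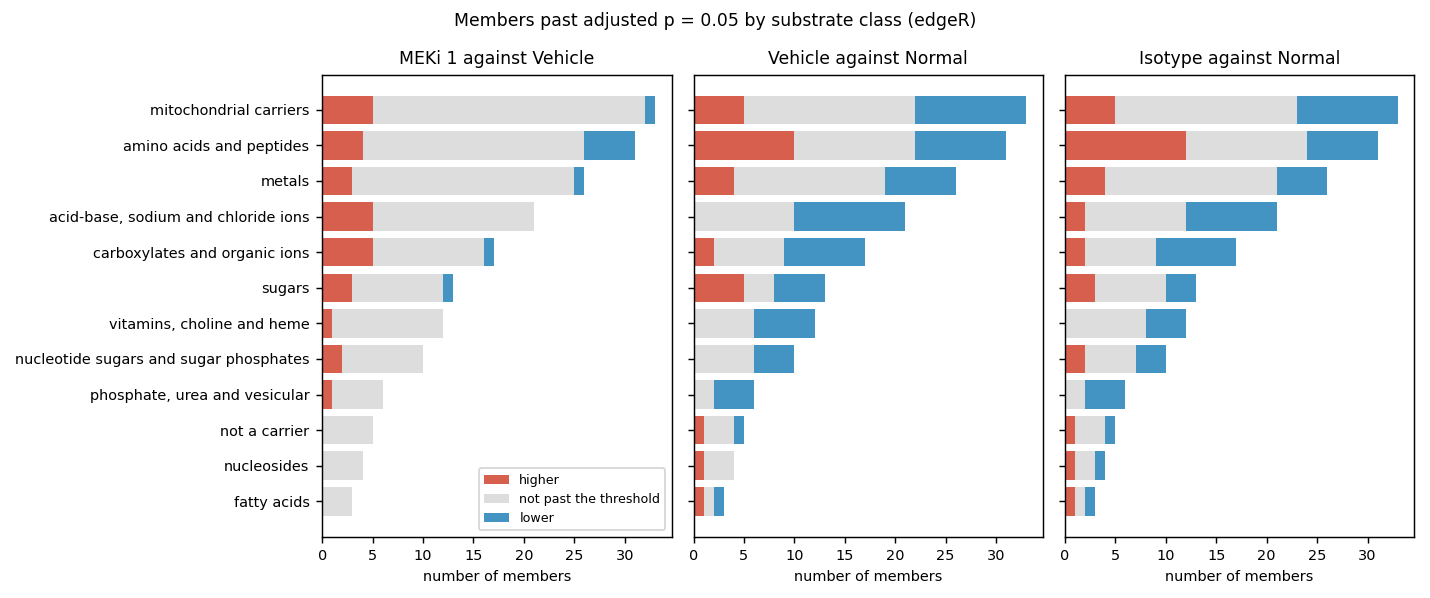
Number of members (horizontal axis) in each class that were higher (red), lower (blue) or not past adjusted p = 0.05 (grey) in 3 comparisons, by edgeR. The ion class shows 11 lower (23.3% of all genes) and none higher (23.1%) of 21 in Vehicle against Normal. In MEKi 1 against Vehicle it shows 5 higher (6.08%) and none lower (4.51%).

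Of the 21 carriers of acid-base, sodium and chloride ions, 11 fell in Vehicle colon (23.3% of all genes) and 0 rose (23.1%). Of these carriers 3 were fitted above 0. Their summed level was 1038 to 1079 CPM in Vehicle libraries and 3884 to 4728 CPM in Normal libraries. Slc26a3, the apical chloride and bicarbonate exchanger whose loss causes congenital chloride diarrhoea in people, lies on chromosome 12, 31390871 to 31473917 (mm10, plus strand). It had 132, 160, 136 and 157 CPM in Vehicle colon and 1236, 1555, 1468 and 2074 CPM in Normal colon. The groups lie far apart and the Vehicle libraries within a narrow band (log2 fold change -3.49 ± 0.62 SE, adjusted p = 0.00021). Slc26a2, a sulphate carrier on chromosome 18, had 129, 135, 138 and 123 CPM in Vehicle colon, against 1317, 1289, 1042 and 1223 CPM in Normal colon, again without overlap (-3.26 ± 0.50, adjusted p = 5.1e-05).

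The sodium and proton exchangers Slc9a3 (log2 fold change -2.03 ± 0.40) and Slc9a2 (-1.91 ± 0.37) fell in Vehicle colon, as did the basolateral bicarbonate carriers Slc4a4 (-2.26 ± 0.40) and Slc4a2 (-1.05 ± 0.16). Slc24a3, a potassium-dependent sodium and calcium exchanger, averaged 6.64 ± 2.54 CPM in Vehicle colon and 41.4 ± 2.51 CPM in Normal colon. Slc12a2, the basolateral carrier that loads chloride for secretion, averaged 117 ± 7.54 CPM in Vehicle colon and 133 ± 28.2 CPM in Normal colon and did not pass the test (adjusted p = 0.12).

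**Figure D2:**
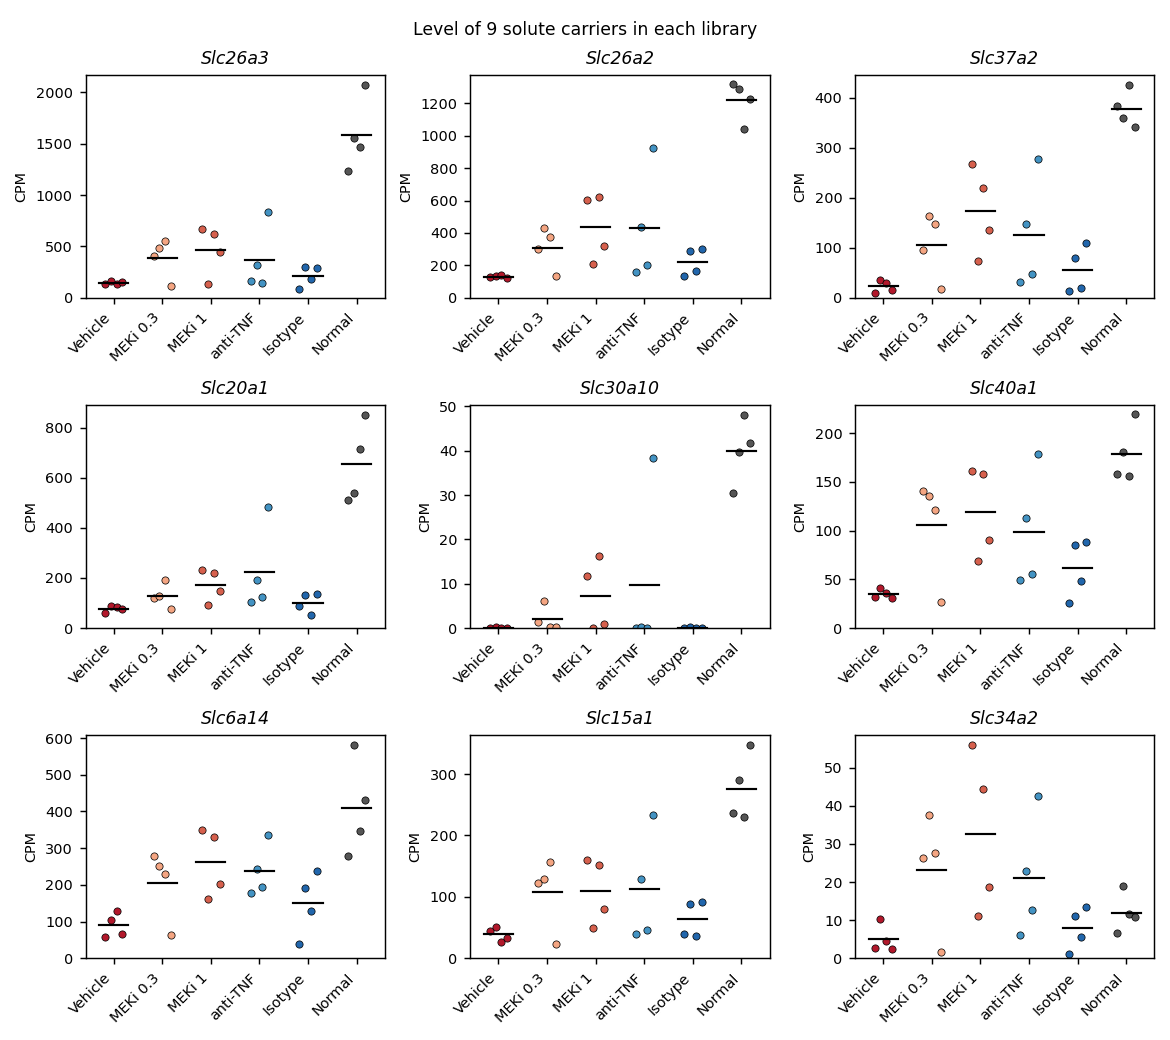
Level (CPM, vertical axis from 0) of 9 members in each of the 24 libraries. Points are libraries and bars are means of 4. The Vehicle libraries of Slc26a3 lie at 132 to 160 CPM, all below the Normal libraries, and Slc30a10 is near 0 in all Vehicle and Isotype libraries.

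Of the 6 carriers of phosphate, urea and vesicular cargo, 4 fell in Vehicle colon (23.3% of all genes). All 6 were fitted below 0. Slc20a1, a sodium-dependent phosphate carrier (chromosome 2, 129198764 to 129211616, plus strand), had 60.6, 89.5, 82.4 and 74.6 CPM in Vehicle colon. In Normal colon it had 509.8, 540.5, 713 and 852 CPM. The groups did not overlap (log2 fold change -3.13 ± 0.45, adjusted p = 2.7e-05). Slc34a2, a sodium and phosphate carrier of the gut surface, had 2.56, 10.2, 4.63 and 2.32 CPM in Vehicle colon and 6.71, 19, 11.6 and 10.7 CPM in Normal colon. Its groups overlapped (-1.27 ± 0.86, adjusted p = 0.24).

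Slc37a2 exchanges glucose-6-phosphate and phosphate across the membrane of the endoplasmic reticulum (chromosome 9, 37227585 to 37255738, minus strand). It had 10.5, 36, 29.98 and 15.4 CPM in Vehicle colon and 384, 359.98, 426 and 342 CPM in Normal colon. No Vehicle library came near the Normal ones (log2 fold change -4.07 ± 0.83, adjusted p = 0.00074). In its class of nucleotide sugar, acetyl-CoA and sugar phosphate carriers, 4 of 10 fell (23.3% of all genes) and 0 rose (23.1%). Slc35a3, which brings UDP-N-acetylglucosamine into the Golgi, was another (-0.97 ± 0.22).

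The metal carriers moved in both directions, 4 higher (23.1% of all genes) and 7 lower (23.3%) of 26, with a class median of 0.00. Slc30a10, a manganese exporter of the cell surface (chromosome 1, 185454848 to 185468762, plus strand), was the only member with a library at 0 reads. It had 0, 0.19, 0 and 0 CPM in Vehicle colon and 30.5, 39.6, 48 and 41.8 CPM in Normal colon. This is 1 read in all 4 Vehicle libraries against 722 reads in the Normal libraries, so the ratio of Vehicle to Normal was 0.00132, with an exact 95% interval of 3.33e-05 to 0.00736 that covers counting error only. Without the Normal libraries its mean was 3.79 CPM, so it is a member only through the Normal group. Its place among the members lower than Normal and the ratio above are therefore a description. The 7 metal carriers and the 67 members given as lower in Vehicle colon include it. Slc40a1, ferroportin, the exporter of iron, had 32.2, 40.6, 35.8 and 30.8 CPM in Vehicle colon, against 158, 180.2, 156 and 219 CPM in Normal colon. The groups did not overlap (log2 fold change -2.40 ± 0.50, adjusted p = 0.00086).

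Carriers that bring iron and zinc into the cell differed among themselves. Slc11a2, the intestinal iron importer, averaged 64.9 ± 4.43 CPM in Vehicle colon and 40.9 ± 4.75 CPM in Normal colon and rose (0.62 ± 0.15). The zinc importer Slc39a4 also rose, with 264 ± 42.6 CPM in Vehicle colon and 161 ± 4.59 CPM in Normal colon (0.67 ± 0.15). The zinc carriers Slc39a5 (-1.72 ± 0.47) and Slc39a9 (-0.73 ± 0.14) fell. Slc31a1, the copper importer, averaged 145 ± 12.5 CPM in Vehicle colon and 140 ± 25.2 CPM in Normal colon (0.01 ± 0.14, adjusted p = 0.95). Slc11a1, a metal carrier of the phagosome of macrophages and neutrophils, had 19.8, 21.2, 11 and 28 CPM in Vehicle colon and 6.06, 2.95, 4.67 and 4.11 CPM in Normal colon. It rose without overlap (2.10 ± 0.38, adjusted p = 0.00014).

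The amino acid and peptide carriers were split, with 10 higher (23.1% of all genes) and 9 lower (23.3%) of 31. The peptide carrier of the absorptive surface, Slc15a1, had 44.6, 51, 26.6 and 33.5 CPM in Vehicle colon and 237, 289.9, 229.9 and 348 CPM in Normal colon, with no overlap (log2 fold change -2.87 ± 0.60, adjusted p = 0.0009). Slc6a14, an apical carrier of neutral and basic amino acids, had 58.7, 104, 129 and 65.9 CPM in Vehicle colon and 279, 581, 346 and 430.3 CPM in Normal colon (-2.23 ± 0.50, adjusted p = 0.0014). The creatine carrier Slc6a8 (-1.49 ± 0.31) and the glutamine carrier Slc1a5 (-0.74 ± 0.13) fell as well.

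Carriers that rose in this class include those of the cystine and leucine routes. Slc7a11, the exchanger that brings in cystine for glutamate, had 21.3, 11, 6.82 and 35.2 CPM in Vehicle colon and 1.95, 2.29, 1.49 and 0.823 CPM in Normal colon. Every Vehicle library lay above every Normal one, with a wide spread inside the Vehicle group (3.48 ± 0.77, adjusted p = 0.0012). Slc7a5, the carrier of large neutral amino acids, had 53.7, 49.1, 32.7 and 45.3 CPM in Vehicle colon, against 12.8, 9.5, 10.3 and 6.58 CPM in Normal colon (2.17 ± 0.39, adjusted p = 0.00018). Its heavy chain Slc3a2, which pairs with Slc7a5 and Slc7a11 at the membrane, rose by 0.69 ± 0.20 on the log2 scale (adjusted p = 0.0063). Slc7a7, another light chain of Slc3a2, rose by 1.06 ± 0.17 on the log2 scale. Slc15a3, a lysosomal carrier of histidine and small peptides (chromosome 19, 10839727 to 10859362, plus strand), had 41, 46.3, 24.6 and 67 CPM in Vehicle colon and 5.41, 1.64, 3.55 and 3.29 CPM in Normal colon. Its groups did not overlap (3.59 ± 0.49, adjusted p = 1.1e-05).

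**Figure D3:**
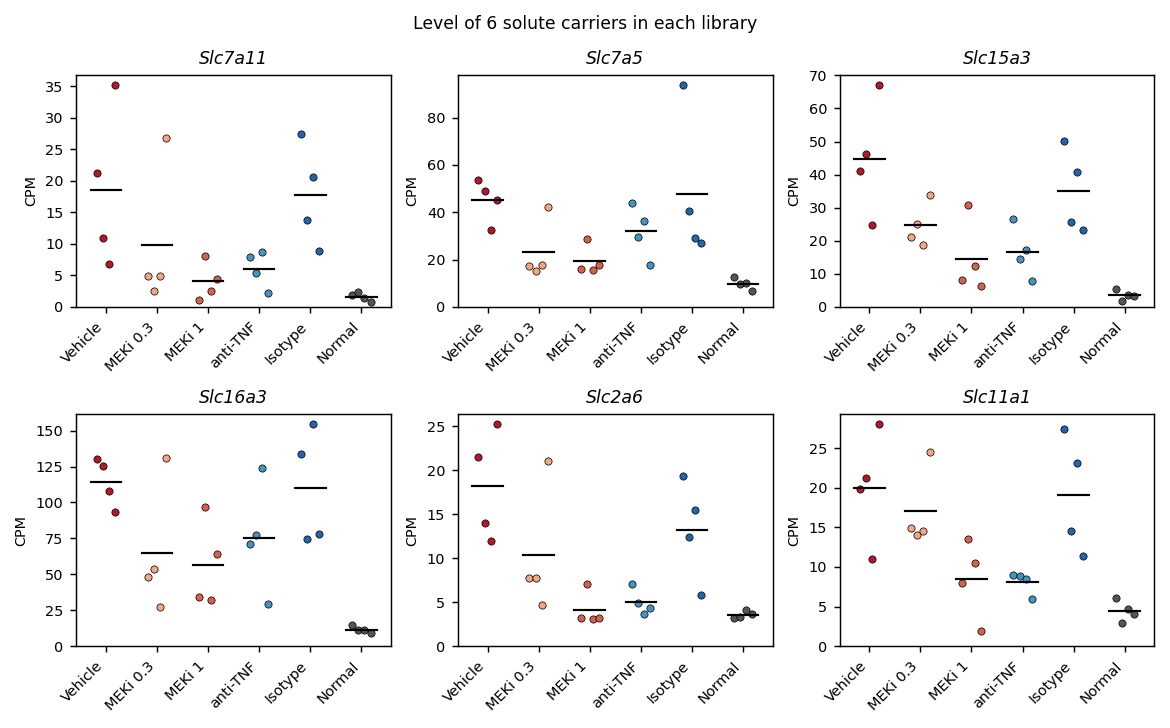
Level (CPM, vertical axis from 0) of 6 members in each of the 24 libraries, with points for libraries and bars for means of 4. The Vehicle libraries of Slc15a3 lie at 24.6 to 67 CPM and its Normal libraries at 1.64 to 5.41 CPM.

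Promoter sequences are shown for every member that holds the core described here, because amino acid response genes are known to be driven by ATF4 through a C/EBP-ATF element. RefSeq promoters of GRCm38.p6, reaching from 250 bases before to 50 after the start, matched 135 members with 181 promoters. The 9-letter form TGATGCAAT of this element, searched on both strands, was found in 0 member promoters and in 0.192% of the 32851 promoters in the table. Its shorter core TGATGCAA was searched after that result had been seen. It was found in 5 of 181 member promoters, belonging to 4 members, Slc7a11, Slc7a7, Slc1a4 and Slc50a1. Among all 32851 promoters 294 held it, or 0.895%. The 2 Slc7a7 windows overlap and hold the same site, so 1 of them is shown. The capitals below mark this core on either strand. The Slc7a11 window holds it once on each strand.
Slc7a11 promoter, chr3:50443564-50443863, minus strand: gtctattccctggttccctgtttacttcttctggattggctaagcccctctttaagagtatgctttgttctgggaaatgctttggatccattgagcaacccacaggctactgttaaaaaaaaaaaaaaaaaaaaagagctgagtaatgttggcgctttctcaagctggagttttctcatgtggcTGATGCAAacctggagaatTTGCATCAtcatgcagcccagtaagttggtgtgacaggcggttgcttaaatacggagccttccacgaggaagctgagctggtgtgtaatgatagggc
Slc7a7 promoter, chr14:54417653-54417952, minus strand: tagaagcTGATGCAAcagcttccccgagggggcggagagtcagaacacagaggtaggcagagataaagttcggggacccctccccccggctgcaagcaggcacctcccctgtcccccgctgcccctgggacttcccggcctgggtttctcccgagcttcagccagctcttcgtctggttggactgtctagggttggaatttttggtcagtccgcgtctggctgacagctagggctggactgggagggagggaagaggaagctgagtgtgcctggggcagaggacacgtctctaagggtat
Slc1a4 promoter, chr11:20332664-20332963, minus strand: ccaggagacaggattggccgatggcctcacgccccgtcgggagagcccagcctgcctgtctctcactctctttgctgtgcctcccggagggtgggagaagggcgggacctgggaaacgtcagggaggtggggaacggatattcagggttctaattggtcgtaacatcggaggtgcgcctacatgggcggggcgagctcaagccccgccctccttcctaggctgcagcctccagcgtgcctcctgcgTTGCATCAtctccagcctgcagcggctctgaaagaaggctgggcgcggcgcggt
Slc50a1 promoter, chr3:89270521-89270820, minus strand: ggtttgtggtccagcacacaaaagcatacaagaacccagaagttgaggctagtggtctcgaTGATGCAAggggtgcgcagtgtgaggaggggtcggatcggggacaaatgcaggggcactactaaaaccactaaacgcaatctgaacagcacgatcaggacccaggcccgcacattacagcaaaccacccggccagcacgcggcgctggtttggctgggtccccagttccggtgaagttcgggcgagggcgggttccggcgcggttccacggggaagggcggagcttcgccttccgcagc
Of the 4 members with the core, Slc7a11 and Slc7a7 rose in Vehicle colon as given above. Slc50a1, a sugar carrier, rose by 0.34 ± 0.12 on the log2 scale (adjusted p = 0.023), a call that missed the threshold without Normal replicate 2 (adjusted p = 0.0631) or Vehicle replicate 3 (adjusted p = 0.0991). Slc1a4, a carrier of small neutral amino acids, did not pass the test (0.27 ± 0.26, adjusted p = 0.40). The letters are a description of these windows. The other planned motifs were searched on both strands. The HNF4-type CAAAGTCCA was in 1 of 181 member promoters, or 0.552% (0.475% of all). The CDX2-type TTTATGG was in 2, or 1.10% (2.75% of all). The NRF2-type TGACNNNGC was in 35, or 19.3% (12.4% of all). The metal response core TGCACNC or TGCGCNC was in 65, or 35.9% (25.7% of all).

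Among 17 carriers of carboxylates and organic ions, 2 rose (23.1% of all genes) and 8 fell (23.3%) in Vehicle colon. Slc16a3, which exports lactate from glycolytic cells, had 131, 125, 108 and 93.1 CPM in Vehicle colon and 14.9, 11.1, 11 and 9.26 CPM in Normal colon (log2 fold change 3.26 ± 0.51, adjusted p = 6e-05). Slc16a1, a carrier of lactate and butyrate in the colon lining, averaged 108 ± 12.6 CPM in Vehicle colon and 226 ± 54.3 CPM in Normal colon and fell (-1.11 ± 0.20). The sodium-coupled butyrate carrier Slc5a8 had 93.2, 146, 155 and 104 CPM in Vehicle colon and 196, 258, 204 and 211 CPM in Normal colon (-0.84 ± 0.25, adjusted p = 0.0094). The 2 carriers of butyrate were thus lower and the lactate exporter higher, all without overlap between the groups. Slc13a2, a carrier of citrate and other dicarboxylates, fell by 1.44 ± 0.43 on the log2 scale, and 26.2% of its exon bases lie opposite to those of Slc13a2os. Slc10a5, of the bile acid carrier family, averaged 2.29 ± 0.95 CPM in Vehicle colon and 22.1 ± 2.65 CPM in Normal colon (-3.29 ± 0.56).

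Of 13 sugar carriers 5 rose (23.1% of all genes) and 5 fell (23.3%) in Vehicle colon. Slc2a6, a hexose carrier of the glucose transporter family, had 21.5, 14, 11.9 and 25.3 CPM in Vehicle colon and 3.25, 3.28, 4.11 and 3.70 CPM in Normal colon (log2 fold change 2.28 ± 0.41, adjusted p = 0.00015). The sodium-coupled sugar carrier Slc5a9 rose (1.62 ± 0.36). The insulin-responsive glucose carrier Slc2a4 (-1.68 ± 0.30) and the myo-inositol carrier Slc5a3 (-1.07 ± 0.19) fell. The intestinal glucose carrier Slc5a1 averaged 165 ± 33 CPM in Vehicle colon and 185 ± 11.6 CPM in Normal colon (adjusted p = 0.32).

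None of the 12 carriers of vitamins, choline and heme rose (23.1% of all genes) and 6 fell (23.3%) in Vehicle colon. The biotin and pantothenate carrier Slc5a6 averaged 15.5 ± 3.24 CPM in Vehicle colon and 73 ± 5.96 CPM in Normal colon (log2 fold change -2.28 ± 0.35). The folate carrier Slc46a1 fell as well (-1.83 ± 0.42). Slc44a4, the colonic thiamine pyrophosphate carrier, averaged 614 ± 65.2 CPM in Vehicle colon and 751 ± 91 CPM in Normal colon and did not pass the test (adjusted p = 0.11). Of the 4 nucleoside carriers 1 rose (23.1% of all genes), the concentrative carrier Slc28a3 (2.09 ± 0.30). Of 3 fatty acid carriers, Slc27a2 rose (1.84 ± 0.43) and Slc27a1 fell (-1.18 ± 0.30).

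The 33 mitochondrial carriers, all of family Slc25, gave 5 higher (23.1% of all genes) and 11 lower (23.3%) in Vehicle colon. Their sum was 3408 ± 117 CPM in Vehicle colon and 3872 ± 142 CPM in Normal colon. The 2 carriers that exchange ADP for ATP did not move alike. Slc25a4 rose by 0.69 ± 0.18 on the log2 scale, while Slc25a5 averaged 989 ± 65.1 CPM in Vehicle colon and 1074 ± 134 CPM in Normal colon (adjusted p = 0.31). The phosphate carrier Slc25a3 (-0.51 ± 0.15), the acylcarnitine carrier Slc25a20 (-0.68 ± 0.19) and the calcium-regulated ATP-Mg and phosphate carrier Slc25a23 (-2.21 ± 0.30) fell.

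Per kilobase of exon, the order of levels differed between the groups. Slc25a5 came first in both, at 797 ± 52.5 CPM per kb in Vehicle colon and 866 ± 108 in Normal colon. Slc26a3 stood at rank 17 in Vehicle colon with 50.3 ± 4.87 CPM per kb, and second in Normal colon with 544 ± 122 CPM per kb. In Normal colon Slc25a3 came next at 525 ± 27.4 CPM per kb, a gap smaller than their spread. Slc20a1 had rank 40 in Vehicle colon and rank 6 in Normal colon.

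Genes that work beside the carriers gave 1 higher and 6 lower of 9 tested in Vehicle colon, out of 12 symbols of partners and scaffolds. Atp1b1, a subunit of the sodium pump, fell (log2 fold change -1.12 ± 0.18). Embigin (Emb), a chaperone of monocarboxylate carriers, rose (2.77 ± 0.39). Of the listed organic anion carriers and Ost subunits 2 rose and 2 fell of 5 tested. For the Slc35b to Slc35f carriers 3 rose and 2 fell of 15. Of the mitochondrial pyruvate and calcium genes 0 rose and 1 fell of 4. Among all genes tested, 23.1% rose and 23.3% fell.

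Cell markers were fitted in the same comparison, where 23.1% of all genes rose and 23.3% fell. The 8 epithelial markers summed to 16733 ± 2682 CPM in Vehicle colon and 15700 ± 2111 CPM in Normal colon, with 2 higher and 1 lower. All 6 macrophage markers found of 7 listed rose, with sums of 2291 to 3968 CPM in Vehicle libraries and 490 to 575 CPM in Normal libraries. All 6 smooth muscle markers fell, with sums of 1227 to 2810 CPM in Vehicle libraries and 5478 to 7157 CPM in Normal libraries. All 5 neuron and glia markers tested fell, with sums of 6.64 to 13.7 CPM in Vehicle libraries and 41.8 to 59.9 CPM in Normal libraries. All 4 adipocyte markers tested fell, with sums of 21 to 41.1 CPM in Vehicle libraries and 174 to 226 CPM in Normal libraries. All 6 cell cycle markers rose, with sums of 882 to 1067 CPM in Vehicle libraries and 273 to 551 CPM in Normal libraries. Neutrophil markers gave 5 higher of 6, with sums of 738 to 1362 CPM in Vehicle libraries and 228 to 443 CPM in Normal libraries. Nearly all of the Normal sum was Ly6g, with a mean of 312 CPM beside 316 CPM for the whole list. Ly6g did not rise, at 269 CPM in Vehicle colon, and Cxcr2 was at 0 in Normal colon. All 7 T cell markers rose, and Cd3d, Cd3e and Trac were at 0 in Normal colon. Their part in the carrier differences was not tested.

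The Isotype group offers another colitis group beside the same Normal libraries. Its libraries held 6139216 reads or more, against at most 5358259 in Normal and 5271844 in Vehicle libraries. Depth and group therefore cannot be told apart when Isotype is set against Normal or Vehicle. In Isotype colon 33 members rose and 56 fell, 49.2% of members, against 41.2% of all genes tested. By direction, 18.2% of members rose, against 20.9% of all genes, and 30.9% fell, against 20.3%. Without 1 library in turn the count was 68 to 87. Slc26a3 averaged 214 ± 97.1 CPM in Isotype colon and 1583 ± 354 CPM in Normal colon (log2 fold change -2.93 ± 0.60, adjusted p = 0.00088). Slc20a1 (-2.75 ± 0.44), Slc37a2 (-2.80 ± 0.77) and Slc15a1 (-2.16 ± 0.58) were lower in Isotype colon, and Slc7a11 (3.42 ± 0.77), Slc15a3 (3.24 ± 0.48) and Slc16a3 (3.21 ± 0.50) higher. Slc30a10 had 0, 0.241, 0 and 0 CPM in Isotype colon, 2 reads in all. It is counted among the 56 lower members, but is a member only through the Normal group.

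Between the colitis controls, Isotype against Vehicle, 3 members passed the test, 1.66% of 181 against 2.99% of all genes. The myo-inositol carrier Slc5a3 (log2 fold change 0.71 ± 0.19) and the acetyl-CoA carrier Slc33a1 (0.55 ± 0.14) were higher in Isotype colon, and Slc50a1 lower (-0.44 ± 0.12). Of the exon bases of Slc33a1, 32% lie opposite to another gene. Leaving out Isotype replicate 1 gave 4 and leaving out Vehicle replicate 1 gave 1. Leaving out Isotype replicate 2 or 4, or Vehicle replicate 2, 3 or 4, gave 0. No member passed when the fit held those groups alone, when the 4 libraries of unsettled naming were left out or when both libraries with pancreas transcripts were left out.

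**Figure D4:**
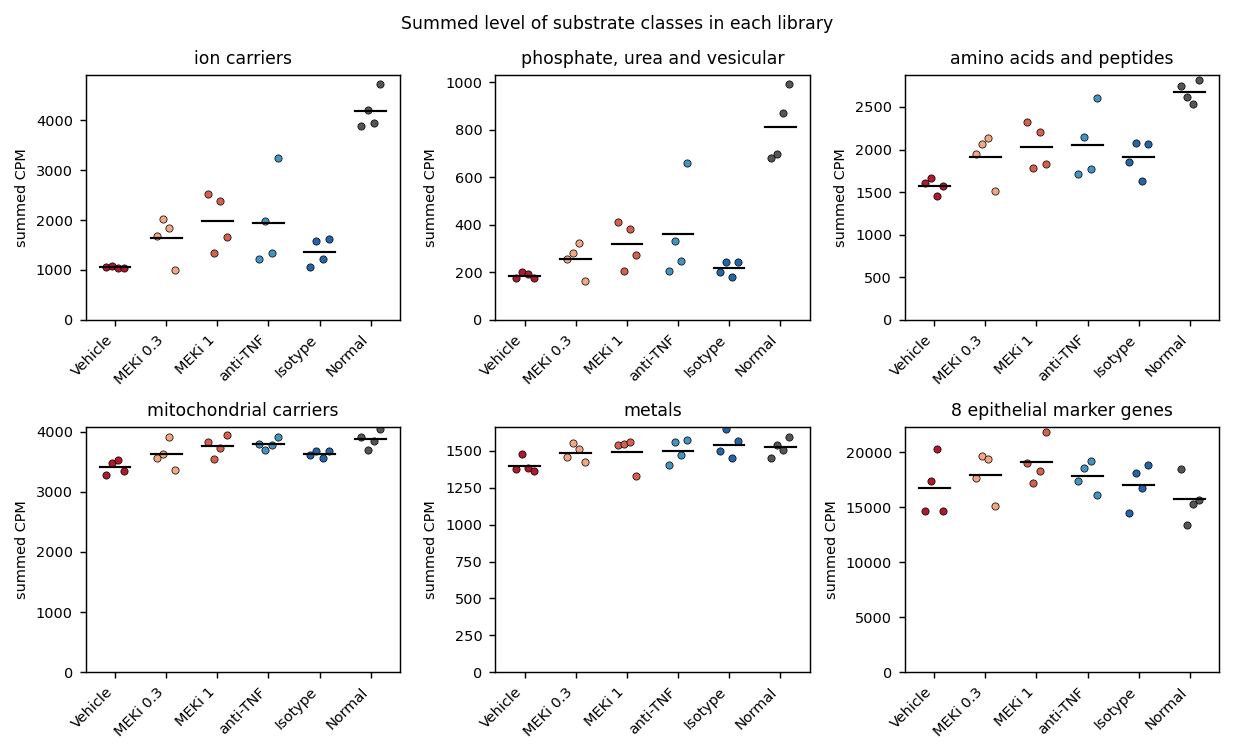
Summed level (CPM, vertical axis from 0) of 5 substrate classes and of 8 epithelial marker genes in each library, with points for libraries and bars for means of 4. The ion carriers hold 1038 to 1079 CPM in Vehicle libraries and 3884 to 4728 CPM in Normal libraries, with treated libraries between or near the Vehicle level.

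The comparison of MEKi 1 with Vehicle asked how carriers stood after 1 mg/kg of the inhibitor. In MEKi 1 colon 29 members rose and 9 fell. Ion, iron, sugar phosphate and phosphate carriers were among those higher, and the hexose, lysosomal peptide, leucine and phagosome carriers Slc2a6, Slc15a3, Slc7a5 and Slc11a1 among those lower. The 38 members make 21% of 181, against 10.6% of all genes tested and 11.7% of those with a mean of 5 CPM or more. By direction 16% of members rose, against 6.08% of all genes, and 4.97% fell, against 4.51%. This count rested on single libraries. With MEKi 1 replicate 1 left out it was 0 (0.286% of all genes), with replicate 3 left out 2, with replicate 4 left out 24, and with replicate 2 left out 52 (15.8% of all genes). Of the Vehicle group, leaving out replicate 4 gave 1 (0.854% of all genes), replicate 1 gave 5, replicate 2 gave 19 and replicate 3 gave 26. Without both libraries with pancreas transcripts it was 10, and with no filter on low counts 11. Where no share of all genes is given, the count does not tell members from other genes. Every call for MEKi 1 named below was therefore lost without MEKi 1 replicate 1, while the fitted direction held in all fits that left out 1 library.

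Of the ion carriers 5 were higher (6.08% of all genes) and 0 lower (4.51%) in MEKi 1 colon. Slc26a2 had 602, 211, 619 and 322 CPM in MEKi 1 colon and 129, 135, 138 and 123 CPM in Vehicle colon (log2 fold change 1.78 ± 0.47, adjusted p = 0.027). The groups did not overlap, and MEKi 1 replicate 2 was lowest. Slc26a3 had 671, 139, 621 and 441 CPM in MEKi 1 colon and 132, 160, 136 and 157 CPM in Vehicle colon. Replicate 2 lay among the Vehicle libraries and the other 3 above them (1.73 ± 0.58, adjusted p = 0.058). Slc4a4 (1.54 ± 0.40), Slc24a3 (1.32 ± 0.39) and Slc4a2 (0.53 ± 0.16) were higher, and Slc9a2 passed narrowly (1.12 ± 0.36, adjusted p = 0.05 after rounding). All 4 MEKi 1 libraries lay below the Normal libraries of Slc26a3 and Slc26a2.

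Slc37a2 had 268, 73.7, 219 and 136 CPM in MEKi 1 colon and 10.5, 36, 29.98 and 15.4 CPM in Vehicle colon, without overlap (log2 fold change 2.95 ± 0.80, adjusted p = 0.029). Slc40a1 had 161, 68.6, 158 and 90.7 CPM in MEKi 1 colon and 32.2, 40.6, 35.8 and 30.8 CPM in Vehicle colon (1.82 ± 0.50, adjusted p = 0.030). MEKi 1 replicates 1 and 3 reached the range of the Normal libraries for this iron exporter. Slc34a2 had 55.9, 11.1, 44.4 and 18.6 CPM in MEKi 1 colon and 2.56, 10.2, 4.63 and 2.32 CPM in Vehicle colon (2.73 ± 0.84, adjusted p = 0.045). Its mean of 32.5 ± 21.1 CPM in MEKi 1 colon stands beside 12 ± 5.13 CPM in Normal colon. Slc7a9, a light chain that carries cystine and basic amino acids, averaged 26.8 ± 14.6 CPM in MEKi 1 colon and 6.11 ± 2.91 CPM in Vehicle colon (2.16 ± 0.61).

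Slc6a14 had 349, 162, 330.4 and 203 CPM in MEKi 1 colon, all above the 58.7, 104, 129 and 65.9 CPM in Vehicle colon (log2 fold change 1.58 ± 0.49, adjusted p = 0.045). Slc5a8 was higher in MEKi 1 colon as well, with 239.5, 219.7, 249 and 156 CPM, against 93.2, 146, 155 and 104 CPM in Vehicle colon (0.83 ± 0.25, adjusted p = 0.040). Slc15a1 had 160.4, 49.4, 151 and 80.3 CPM in MEKi 1 colon and 44.6, 51, 26.6 and 33.5 CPM in Vehicle colon, with replicate 2 inside the Vehicle range, and did not pass (adjusted p = 0.086). Slc20a1 had 230.4, 90.6, 219.7 and 147 CPM in MEKi 1 colon and 60.6, 89.5, 82.4 and 74.6 CPM in Vehicle colon (1.21 ± 0.43, adjusted p = 0.069). For Slc30a10 the MEKi 1 libraries held 11.6, 0, 16.3 and 0.945 CPM, or 118 reads, against 1 read in Vehicle colon (adjusted p = 0.095).

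Among the members lower in MEKi 1 colon, Slc2a6 had 3.19, 7.05, 3.06 and 3.15 CPM in MEKi 1 colon and 21.5, 14, 11.9 and 25.3 CPM in Vehicle colon (log2 fold change -2.07 ± 0.41, adjusted p = 0.011). The groups did not overlap, and its call was lost in 1 of the 8 fits without a library of these groups, that without MEKi 1 replicate 1 (adjusted p = 0.056). Slc7a5 had 16.2, 28.6, 15.6 and 17.6 CPM in MEKi 1 colon and 53.7, 49.1, 32.7 and 45.3 CPM in Vehicle colon (-1.16 ± 0.37, adjusted p = 0.047), and Slc3a2 was lower too (-0.84 ± 0.20). Slc15a3 had 8.21, 30.8, 12.5 and 6.30 CPM in MEKi 1 colon and 41, 46.3, 24.6 and 67 CPM in Vehicle colon, with replicate 2 inside the Vehicle range (-1.57 ± 0.42, adjusted p = 0.027). Slc11a1 had 7.98, 13.5, 10.5 and 1.89 CPM in MEKi 1 colon and 19.8, 21.2, 11 and 28 CPM in Vehicle colon (-1.18 ± 0.35, adjusted p = 0.037). Slc7a11 (-2.13 ± 0.69, adjusted p = 0.051) and Slc16a3 (-0.97 ± 0.45, adjusted p = 0.15) did not pass. The macrophage markers summed to 1082, 1914, 1465 and 475 CPM in MEKi 1 libraries and 2291 to 3968 CPM in Vehicle libraries, with 4 of 6 lower. The neutrophil markers summed to 213 to 437 CPM in MEKi 1 libraries and 738 to 1362 CPM in Vehicle libraries, with 5 of 6 lower. Most of the MEKi 1 sum was Ly6g, with a mean of 240 CPM beside 317 CPM for the whole list. In Vehicle colon Ly6g averaged 269 CPM. The T cell markers summed to 40 to 102 CPM in MEKi 1 libraries and 106 to 147 CPM in Vehicle libraries, with 5 of 7 lower. Of the cell cycle markers 2 of 6 were lower, and of the smooth muscle markers 1 of 6 was higher. The epithelial markers gave 0 higher and 0 lower of 8, with sums of 19079 ± 1992 CPM in MEKi 1 colon and 16733 ± 2682 CPM in Vehicle colon. Their part in the carrier differences was not tested.

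**Figure D5:**
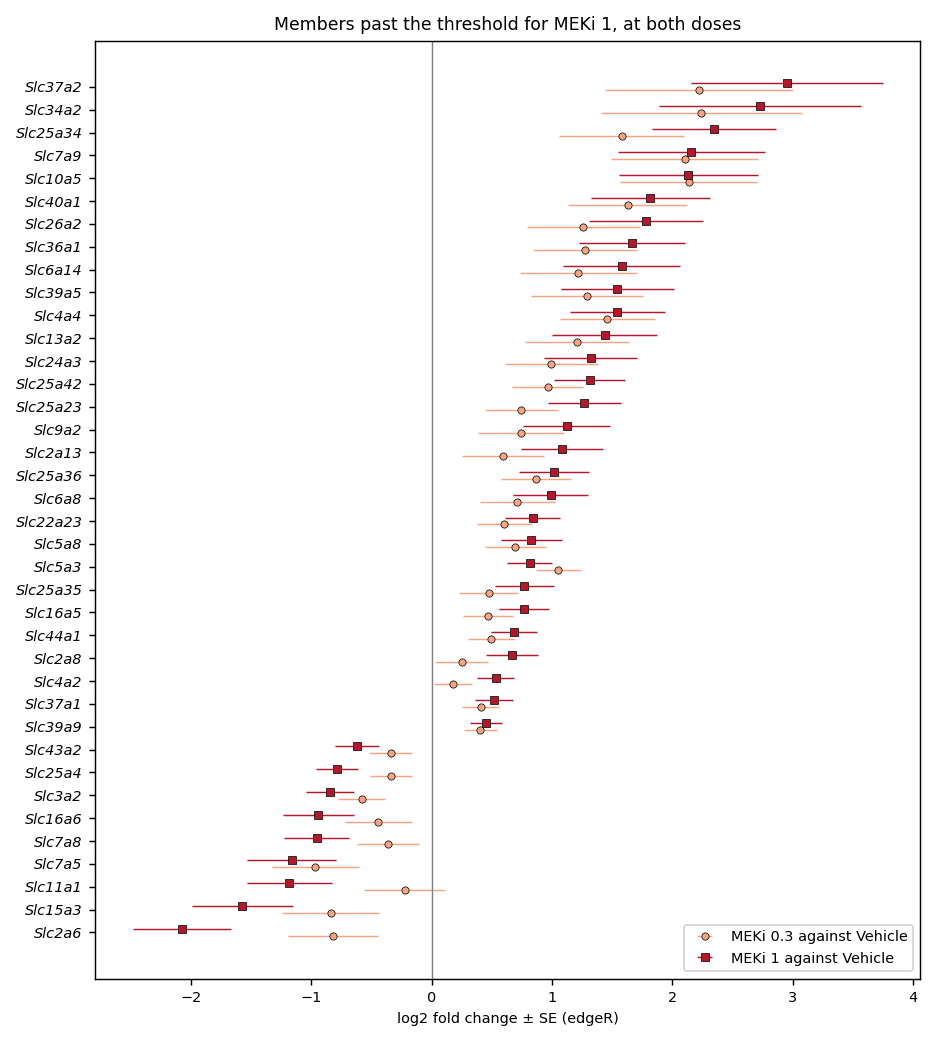
log2 fold change against Vehicle with SE (horizontal axis, edgeR) of the 38 members past the threshold for MEKi 1, at 0.3 mg/kg (circles) and 1 mg/kg (squares). Both doses share the Vehicle libraries; no member passed the test for MEKi 0.3, where Slc37a2 stands at 2.22 and Slc2a6 at -0.82.

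At 0.3 mg/kg no member passed edgeR's test against Vehicle, beside 0.00677% of all genes. DESeq2 called 3, for which the share of all genes is not given here. An unadjusted p under 0.05 was reached by 46 members, or 25.4%, against 17.9% of all genes. Deviations of libraries with the same number were weakly correlated in these groups, at 0.126, 0.125, 0.167 and 0.184. The labels do not pair these libraries. With the number as a block in a fit of those 8 libraries, an analysis chosen after seeing the data, 9 members were higher and 1 lower of 180 tested, against 2.97% of all genes. Those higher include Slc5a3 (log2 fold change 1.05, adjusted p = 0.0147), Slc10a5 (2.10, adjusted p = 0.0147) and Slc4a4 (1.42, adjusted p = 0.0466), and the lower one was Slc15a3 (-0.80, adjusted p = 0.0276). With the block shared by all 6 groups the count was 0. Without MEKi 0.3 replicate 4, 19 members were higher and 4 lower, against 7.52% of all genes. For Slc26a3 that library had 114 CPM and the other MEKi 0.3 libraries 409, 481 and 555 CPM, beside 132 to 160 CPM in Vehicle colon. For Slc40a1 it had 26.3 CPM and the others 141, 136 and 121 CPM, beside 30.8 to 40.6 CPM in Vehicle colon. Its macrophage markers summed to 2877 CPM, the highest of the MEKi 0.3 group.

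Between the doses, MEKi 1 against MEKi 0.3, no member passed edgeR's test (0.0% of all genes), and DESeq2 called 0. An unadjusted p under 0.05 was reached by 7 members, or 3.87%, against 4.34% of all genes. Slc26a3 averaged 468 ± 241 CPM in MEKi 1 colon and 390 ± 193 CPM in MEKi 0.3 colon. Slc2a6 came nearest, with 4.11 ± 1.96 CPM in MEKi 1 colon and 10.3 ± 7.31 CPM in MEKi 0.3 colon (log2 difference -1.25 ± 0.42, unadjusted p = 0.00623).

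For anti-TNF against Isotype no member passed edgeR's test, beside 0.0203% of all genes, and DESeq2 called 0. An unadjusted p under 0.05 was reached by 33 members, or 18.2%, against 11.2% of all genes. The libraries of unsettled naming are anti-TNF replicates 1 and 2 and Isotype replicates 3 and 4, so the group values below depend on the naming by file. Slc2a6 had 7.03, 4.86, 3.63 and 4.37 CPM in anti-TNF colon and 19.3, 12.4, 15.5 and 5.76 CPM in Isotype colon (log2 fold change -1.39 ± 0.38, adjusted p = 0.21). Slc11a1 had 9.03, 8.90, 8.54 and 5.96 CPM in anti-TNF colon and 27.3, 14.6, 23.1 and 11.4 CPM in Isotype colon, without overlap (-1.21 ± 0.34, adjusted p = 0.21). Under the names of the table of all samples these groups overlap for Slc11a1, at 5.96 to 23.1 CPM in anti-TNF colon and 8.90 to 27.3 CPM in Isotype colon. Slc26a3 had 159, 319, 143 and 833 CPM in anti-TNF colon, against 88.8, 296, 186 and 286 CPM in Isotype colon, with anti-TNF replicate 4 far above the Isotype range and replicate 2 just above it (0.77 ± 0.56, adjusted p = 0.63). Anti-TNF replicate 4 also held 38.3 CPM of Slc30a10, against 0 to 0.237 CPM in the other 3 anti-TNF libraries. Slc20a1 had 103, 193, 124 and 481 CPM in anti-TNF colon and 87.8, 132, 50.3 and 134 CPM in Isotype colon (1.18 ± 0.42, adjusted p = 0.30).

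The difference between the effect of MEKi 1 over Vehicle and that of anti-TNF over Isotype was fitted as well. No member passed edgeR's test (0.0135% of all genes), and DESeq2 called 0. An unadjusted p under 0.05 was reached by 6 members, or 3.31%, against 4.93% of all genes. The myo-inositol carrier Slc5a3 had the lowest p, with 32.1 ± 4.82 CPM in MEKi 1, 18.8 ± 1.17 in Vehicle, 28.3 ± 1.90 in anti-TNF and 31 ± 9.97 in Isotype colon (difference of log2 fold changes 0.92 ± 0.26, adjusted p = 0.50).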

How the data were processed

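Poly(A) RNA of mouse distal colon was fragmented with RNase III and sequenced on the Ion Torrent platform, per the labels' protocols. The deposited files of each sample hold raw read counts per gene symbol. The genome build mm10 is named in the submitters' processing notes. Aligner, counter, annotation and use of strand are not given in the sources used, so reads of overlapping genes cannot be told apart. Library totals were 4102817 to 5271844 (Vehicle), 4034493 to 5840995 (MEKi 0.3), 3175698 to 4678256 (MEKi 1), 6974099 to 8545019 (anti-TNF), 6139216 to 10587555 (Isotype) and 3052940 to 5358259 (Normal), which sets the counting error. The deposited table of all samples was used only for an alternative.

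Genes past filterByExpr (14773) were fitted over all 24 libraries with edgeR 4.0.16 in R 4.3.3 (TMM factors, robust quasi-likelihood, group as the only term, Benjamini-Hochberg over all genes tested). All 181 members passed the filter. SEs are the log2 fold change divided by the root of F. The script was tested on simulated data. Alternatives were DESeq2 1.42.0, other scalings and filters, a length offset, the groups compared alone, the replicate number as a block, the table's column names, and libraries left out. Exon lengths and coordinates are from GENCODE M21 (GRCm38), which held all 181 members. The labels give a replicate number but no pairing. Every same-number correlation passed 0.1 only for MEKi 0.3 against Vehicle. For anti-TNF against Isotype these correlations were 0.216, 0.0862, 0.142 and 0.342. Those of libraries with different numbers were not computed, so a pairing by number was not tested.

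Members, gene lists and classes were chosen with earlier results of these data known. A rule on class, rank and known carriers names 97 members; those described in full were picked from the 97 after their values were seen. The paired fit of MEKi 0.3 and Vehicle, the fit without both libraries with pancreas transcripts, and the shorter promoter core were added after seeing the data. Values of named members were recomputed under the alternatives only for those past the threshold in a comparison. Some partner genes are not reported here by name.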

Additional observations from a re-analysis of the deposited data

Results flagged for a closer look

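In 174 groups of 4 libraries, made of 16 members and the class sums, 14 groups held a library that stood apart from the other 3 by more than Dixon's 95% limit, where chance gives about 1 in 20. The 16 members were chosen after their values were seen, and other members were not looked at. MEKi 0.3 replicate 4 stood apart most often. It was high for Slc7a11 (26.8 CPM, others 2.52 to 4.96), Slc7a5 (42.1 CPM, others 15.3 to 17.8) and Slc11a1 (24.5 CPM, others 14 to 14.9). It was low for the sums of vitamin, choline and heme carriers (897 CPM, others 1291 to 1368), carboxylate and organic ion carriers (779.8 CPM, others 1153 to 1191) and fatty acid carriers (93.2 CPM, others 106 to 108).

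MEKi 1 replicate 2 was high for Slc7a5 (28.6 CPM, others 15.6 to 17.6) and Slc2a6 (7.05 CPM, others 3.06 to 3.19), and MEKi 1 replicate 4 was low for the sum of metal carriers (1330 CPM, others 1538 to 1562). Anti-TNF replicate 4 was high for Slc30a10 (38.3 CPM, others 0 to 0.237) and low for Slc11a1 (5.96 CPM, others 8.54 to 9.03). Normal replicate 4 was high for the sum of all carriers (18892 CPM, others 17446 to 17497). For Slc30a10, Vehicle replicate 2 (0.19 CPM) and Isotype replicate 2 (0.241 CPM) stood apart on 1 or 2 reads.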

How the results depend on the processing

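The counts of members called in Vehicle or Isotype colon against Normal colon stayed within 1.5 times of those reported under every alternative run except the column names of the table of all samples. Under those names 0 members were called for Vehicle against Normal and 1 for Isotype against Normal. The counts were 0 for Isotype against Vehicle and 0 for MEKi 1 against Vehicle. In that naming 16 of 24 libraries stand under another sample's name than in their own file. Isotype against Vehicle gave 6 with DESeq2, 1 with no filter, 1 with the replicate block, and 0 with the groups alone, with the length offset, without the 4 libraries of unsettled naming or without both libraries with pancreas transcripts. MEKi 1 against Vehicle gave 11 with no filter, 24 with the replicate block and 10 without both libraries with pancreas transcripts. MEKi 0.3 against Vehicle gave 3 with DESeq2, 1 with no filter and 10 with the replicate block in a fit of the pair. The replicate block changed no other of these counts by over 1.5 times. Whether libraries of the same number belong together was not tested. Leaving out 1 library of the groups compared gave 88 to 93 (Vehicle against Normal), 68 to 87 (Isotype against Normal), 0 to 4 (Isotype against Vehicle), 0 to 52 (MEKi 1 against Vehicle), 0 to 23 (MEKi 0.3 against Vehicle) and 0 in the other comparisons. The cause of these shifts was not tested. Shares of all genes are not given for most of these alternatives, so the counts do not tell members from other genes.

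Of 133 called values of named members, no direction turned except under the table's column names, where 43 turned and the other 90 lost the call. Calls were lost for 0 with DESeq2, 2 with RLE factors, 8 with library size alone, 30 with no filter, 1 with a minimum mean of 5 CPM, 6 with the groups alone, 13 with the block, 13 with the length offset, 19 without the 4 libraries of unsettled naming, 32 without both libraries with pancreas transcripts, and in 209 of 1064 fits without 1 library. Under the table's names the log2 fold changes that turned were, for Vehicle against Normal, Slc1a5 0.14, Slc20a1 0.52, Slc22a23 0.02, Slc24a3 0.07, Slc25a23 0.22, Slc25a3 0.09, Slc26a3 0.21, Slc30a10 0.26, Slc39a9 0.01, Slc43a2 -0.05, Slc46a1 0.02, Slc4a2 0.05, Slc5a6 0.05 and Slc9a2 0.16; for Isotype against Vehicle, Slc5a3 -0.38; and for MEKi 1 against Vehicle, Slc10a5 -1.49, Slc11a1 0.13, Slc13a2 -0.20, Slc15a3 0.92, Slc22a23 -0.44, Slc24a3 -1.13, Slc25a23 -0.93, Slc25a34 -0.56, Slc25a4 0.08, Slc26a2 -1.20, Slc2a6 0.41, Slc37a1 -0.09, Slc37a2 -1.20, Slc39a5 -0.30, Slc39a9 -0.32, Slc3a2 0.10, Slc40a1 -0.72, Slc43a2 0.20, Slc44a1 -0.07, Slc4a2 -0.52, Slc4a4 -0.76, Slc5a3 -0.53, Slc5a8 -0.21, Slc6a14 -0.54, Slc6a8 -0.46, Slc7a5 0.57, Slc7a9 -0.17 and Slc9a2 -0.76. Depth limits Slc30a10 most, with 1 read in Vehicle colon.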
